A study of Mus musculus with 40 samples.

Results

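The mRNAs described here encode 8 proteins that bind AU-rich elements (AREs): the tristetraprolin (TTP) family, Zfp36 (TTP itself), Zfp36l1 and Zfp36l2, and 5 further ARE-binding proteins, Elavl1 (HuR), Khsrp, Hnrnpd (AUF1), Tia1 and Tial1. They were taken by gene symbol from a list of ARE-binding proteins made with earlier results of these data known, and are 8 of the 27179 genes in the deposited expression table. RNA-seq was done on bone marrow-derived macrophages (BMDMs), cells grown from femur marrow of adult male mice with L-cell conditioned medium as the source of the growth factor M-CSF. WT mice and mice with a full knockout of Cpeb4, an RNA-binding protein of cytoplasmic polyadenylation elements (CPEs), were compared, all on a mixed background of C57BL/6J and 129. Cells were left untreated (0 hr) or received 10 ng/ml LPS, a bacterial membrane component, for 1, 3, 6 or 9 hr. There were 4 WT mice (25, 69, 87 and 88) and 4 Cpeb4-/- mice (2, 3, 55 and 62), and each gave 1 library at each of the 5 times, 40 in all. Each of 2 batches held 2 mice of either genotype, whereas no cage held both genotypes, so cage and genotype cannot be told apart. Values are rlog, a log2 scale corrected for library size, on which a difference of 1 is a doubling. This scale keeps no read depth.

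AREs are AU-rich stretches of the 3′ UTR, typically built of AUUUA pentamers, that mark many cytokine mRNAs for rapid decay. TTP family proteins bind them through zinc fingers and recruit the CCR4-NOT deadenylase, whereas HuR binds similar sites and mostly protects the mRNA. In macrophages LPS activates the kinase p38 and its target MK2, which phosphorylates TTP and weakens its hold on its targets, among them the TTP mRNA itself.

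All 8 members were found in the mouse annotation GENCODE vM21 (build mm10), from which the longest annotated 3′ UTR of each was read. The pentamer ATTTA, in DNA letters on the strand of the mRNA and with overlaps counted, occurred in the 3′ UTR of all 8, as in 65.2% of 21020 genes with a 3′ UTR. The nonamer TTATTTATT, the preferred TTP site, occurred in 4 members (Zfp36, Zfp36l1, Zfp36l2 and Elavl1) and in 7.66% of all genes. The 30-base windows that hold it are shown because they set these 4 mRNAs apart from the other members by sequence. Capitals mark ATTTA, and all 4 lie on the minus strand, in the 3′ UTR, at chr7:28376953-28376982, chr12:80108167-80108196, chr17:84184914-84184943 and chr8:4285778-4285807 in the order shown.
Zfp36: ATTTAtgacgactttATTTAttgtattaag
Zfp36l1: aaactgttggattATTTAttttagaaattc
Zfp36l2: aactATTTAacttATTTAttatcttgtgaa
Elavl1: attATTTATTTATTTATTTAtttttATTTA
Each TTP family 3′ UTR held 1 nonamer, and the window of Elavl1 held 4 overlapping copies of the 8 in its 3′ UTR. Counts of ATTTA were 3 in 774 bases for Zfp36, 9 in 1835 for Zfp36l1, 5 in 1822 for Zfp36l2 and 17 in 4218 for Elavl1. The other members had no nonamer, with 1 ATTTA in Khsrp, 10 in Hnrnpd, 8 in Tia1 and 3 in Tial1. CPEs were searched on the same strand as 7 motifs, namely the hexamer TTTTAT, the heptamer TTTTAAT, the octamer TTTTAAAT, the heptamer TTTTACT, the heptamer TTTTCAT, the octamer TTTTAAGT and the hexamer TTTTGT. Counts ran from 4 in Zfp36 to 28 in Elavl1. All 8 members held at least 1, as did 72.8% of all genes. A match of letters is a description and does not show binding.

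The libraries were macrophage-like throughout. All 8 macrophage markers (such as Csf1r and Adgre1) passed the filter on low values, and their mean rlog per library was 14.3 to 14.8 in WT and 14.3 to 14.7 in Cpeb4-/-. Mean rlog of the lists of B, T and NK, neutrophil, dendritic and mast cell markers stayed at or under 2.34 in every library, and that of 5 erythroid and megakaryocyte markers at or under 3.92. At 6 hr the macrophage markers stood at 14.75 to 14.83 in WT and 14.44 to 14.67 in Cpeb4-/- libraries, without overlap, and 5 of 8 were called lower (Csf1r, Cd68, Lyz2, Mrc1 and Fcgr1, median over the 8 −0.27), against 2 higher and 3 lower with quantile normalization. At 9 hr 3 of 8 were called lower and at 3 hr 1, against 1 and 0 with quantile normalization. Of all genes, 1.87%, 9.92% and 3.22% were called lower at 3, 6 and 9 hr, and 1.61%, 7.63% and 3.23% with quantile normalization. The mean of 5 stromal markers was 1.66 to 1.85 at 0 hr and 2.93 to 3.39 at 9 hr in WT, and 1.80 to 2.26 and 3.21 to 4.85 in Cpeb4-/- libraries, highest in mouse 55. The part of these markers in the values below was not tested. In bulk RNA, fewer cells of a type and less RNA per cell cannot be told apart. Cpeb4 mRNA separated the genotypes at 6 hr (10.45 in WT, 9.18 in Cpeb4-/-, adjusted p = 0.00114, limma) and overlapped at the other times, where the genotypes are as labelled. The difference was −0.24 at 0 hr, 0.37 at 1 hr (8.64 in WT, 9.01 in Cpeb4-/-, against the direction of the label), −0.55 at 3 hr and −0.31 at 9 hr. Whether its gene-level value includes exons that remain in the deleted allele was not tested.

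Zfp36, the founding member, was the member induced most by LPS. At 0 hr its rlog in WT mice 25, 69, 87 and 88 was 13.11, 13.19, 13.11 and 12.99, and at 1 hr it was 15.99, 16.00, 16.05 and 16.00. All 4 mice rose, by 2.81 to 3.01, with no overlap of the times, for a mean gain of 2.91 (SE 0.063) or 7.53-fold (adjusted p = 6.25e-30, limma). It then fell by 1.28 to 3 hr, rose again by 0.57 to 6 hr (15.26, 15.38, 15.29 and 15.27) and fell by 1.08 to 9 hr. Each of these steps went the same way in 4 of 4 WT mice, and at 9 hr Zfp36 was still 2.17-fold above 0 hr (1.12 on the log2 scale). With quantile normalization these values were smaller, 0.31 from 3 to 6 hr and 0.51 from 0 to 9 hr, and both were called. Cpeb4-/- libraries had the same sequence of steps, with gains of 2.75 at 1 hr and 0.30 from 3 to 6 hr. The latter rise was not called with quantile normalization (0.09, adjusted p = 0.227), whereas the WT rise was. The difference between the genotypes in this step was not tested.

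Zfp36l1 and Zfp36l2, whose proteins share the zinc fingers of TTP and are best known from lymphocyte development and early embryos, followed other courses. Zfp36l1 rose to 1 hr (0.69, 1.62-fold) and then fell 7.01-fold by 3 hr, from 12.26, 12.24, 11.97 and 11.99 in WT mice 25, 69, 87 and 88 to 9.12, 9.42, 9.20 and 9.48 (difference −2.81, SE 0.080, adjusted p = 2.29e-26, limma). The libraries of the 2 times were far apart in every mouse. It fell further, by 0.66, to 6 hr and stayed low at 9 hr (6.61-fold below 0 hr). Zfp36l2 was not called at 1 hr (−0.21, adjusted p = 0.167, limma), but was called lower with quantile normalization (−0.43, adjusted p = 0.00307). It fell 5.43-fold from 1 to 3 hr, from 12.05, 12.18, 11.48 and 11.71 to 9.26, 9.48, 9.25 and 9.66. It then regained 0.47 by 6 hr and 0.92 by 9 hr, and ended 2.39-fold below 0 hr. In Cpeb4-/- libraries the falls from 1 to 3 hr were −2.45 for Zfp36l1 and −2.48 for Zfp36l2, and their difference from the WT falls was not tested.

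**Figure D1:**
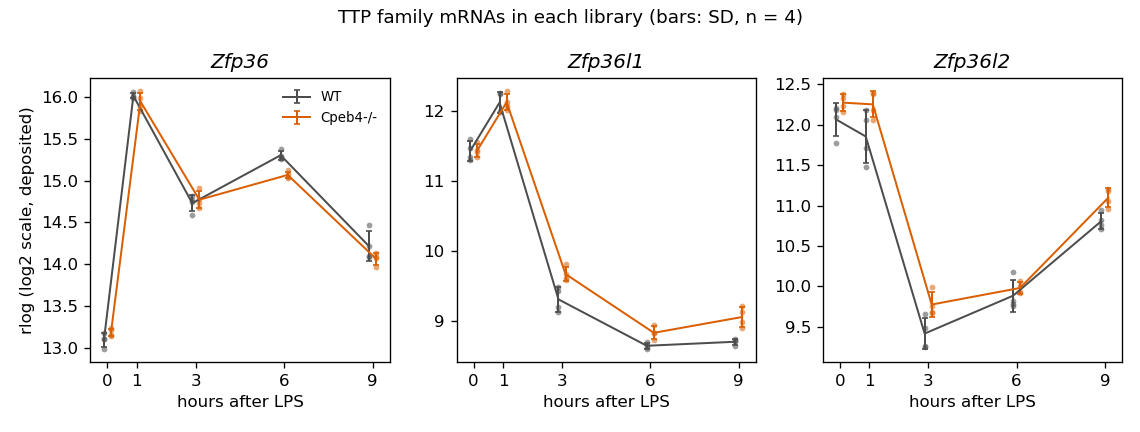
rlog (log2 scale) of the TTP family mRNAs against hours after LPS, with 1 point per library, lines through group means and bars of 1 SD (n = 4). Zfp36 peaked at 1 hr near 16.0, while Zfp36l1 and Zfp36l2 were at 9.31 and 9.41 in WT at 3 hr.

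To set the 3 family members side by side, rlog values were back-transformed and divided by the length of the transcript with the longest 3′ UTR (2790, 2990 and 3530 bases). On this per-kilobase scale, Zfp36 made up 59.5% ± 2.56 (SD, n = 4) of the family's summed level in untreated WT cells, Zfp36l2 23.1% ± 2.24 and Zfp36l1 17.4% ± 0.579. At 1 hr the share of Zfp36 was 90.2% ± 1.47, and at 6 hr 97.3% ± 0.144. By 9 hr Zfp36l2 was back at 6.85% ± 1.06, so that Zfp36 stood at 91.3% ± 1.27. The shares rest on 1 annotated transcript per gene and describe mRNA, not protein.

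**Figure D2:**
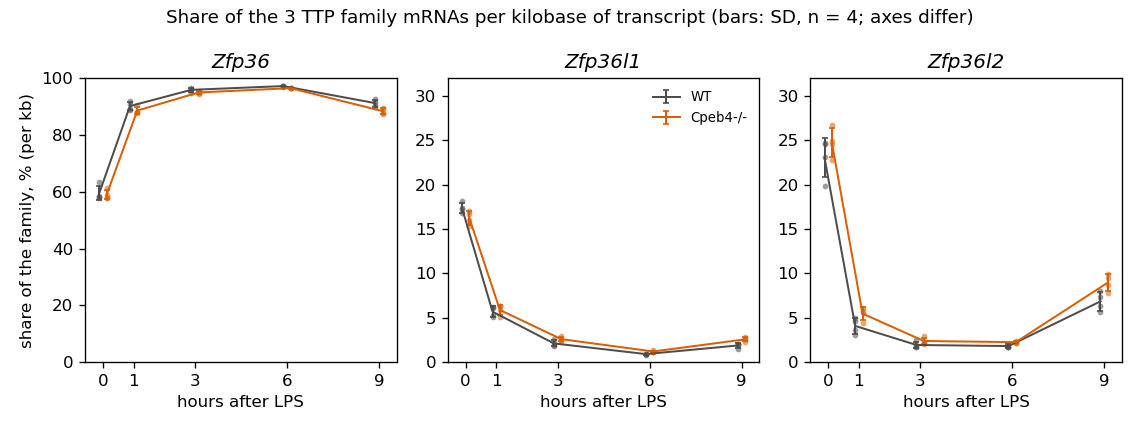
Share of Zfp36, Zfp36l1 and Zfp36l2 in their summed per-kilobase level against hours after LPS, with points for libraries, group means and SD bars (n = 4). Zfp36 rose from 59.5% to 97.3% in WT between 0 and 6 hr.

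The other members moved far less. Elavl1, which encodes HuR, had WT values of 11.05, 10.96, 10.97 and 10.97 at 0 hr and of 11.74, 11.67, 11.76 and 11.70 at 6 hr (mice 25, 69, 87 and 88). It rose at each step to 6 hr, by 0.32, 0.23 and 0.18, in 4 of 4 WT mice each time, and fell by 0.23 to 9 hr, ending 1.41-fold above 0 hr (adjusted p = 3.51e-14, limma). With quantile normalization the gains to 1 and 3 hr were 0.21 and 0.09 and that from 0 to 9 hr 0.27, against 0.50 as deposited, and the steps from 3 to 6 hr and from 6 to 9 hr were not called (0.03 and −0.06). Hnrnpd, a protein of several isoforms that can promote ARE mRNA decay, had a mean of 12.22 ± 0.09 at 0 hr and 12.58 ± 0.03 at 6 hr in WT. Its gain from 0 to 9 hr (0.21, adjusted p = 5.69e-05) turned into a loss with quantile normalization (−0.19, adjusted p = 0.00044), so no direction over time is given for it. Khsrp, which recruits decay enzymes to AREs, was not called at any step as deposited (WT means 11.48 to 11.54). With quantile normalization it was called lower in WT from 0 to 1 hr (−0.19), from 1 to 3 hr (−0.21) and from 0 to 9 hr (−0.38). In Cpeb4-/- libraries it was then called lower from 1 to 3 hr (−0.21), from 3 to 6 hr (−0.20) and from 0 to 9 hr (−0.41). Tia1 and Tial1 encode related proteins that repress translation and gather in stress granules. Tia1 fell by 0.41 within 1 hr in 4 of 4 WT mice (means 9.42 ± 0.19 and 9.01 ± 0.14, adjusted p = 6.31e-06) and rose by 0.28 from 3 to 6 hr. Tial1 fell by 0.19 from 1 to 3 hr and ended 0.21 below 0 hr (adjusted p = 8.56e-06), and with quantile normalization these were −0.31 and −0.42, with a fall already at 1 hr (−0.13, adjusted p = 0.0119).

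**Figure D3:**
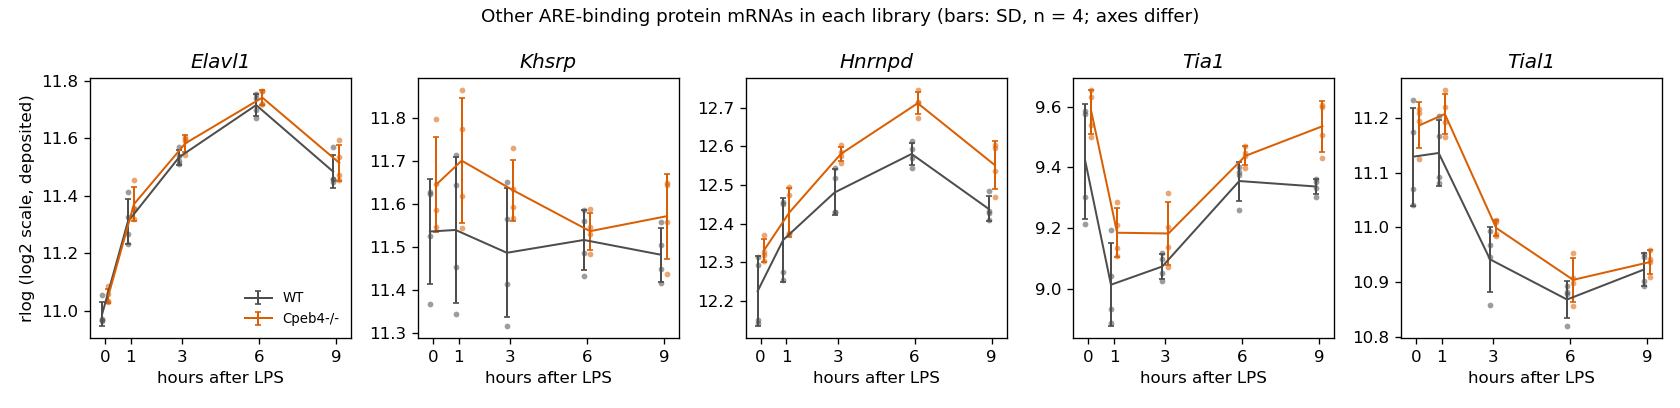
rlog of the other 5 members against hours after LPS, with points for libraries, group means and SD bars (n = 4), each panel on its own axis. Elavl1 rose from 10.99 to 11.72 in WT by 6 hr, and the course of Hnrnpd as plotted changed sign with quantile normalization.

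Of the 8 members in WT, 4 were called higher and 1 lower at 1 against 0 hr, where 19.4% of all genes tested were called higher and 18.3% lower (adjusted p under 0.05, limma). From 1 to 3 hr 2 were higher and 4 lower (all genes 29.3% and 33.7%), from 3 to 6 hr 5 and 1 (34.8% and 32%), from 6 to 9 hr 1 and 3 (24.9% and 29.5%), and at 9 against 0 hr 3 and 3 (37% and 36.6%). In Cpeb4-/- libraries 3 were higher and 1 lower at 1 against 0 hr (all genes 22.6% and 19.4%) and 2 and 4 from 1 to 3 hr (29.5% and 32.7%). From 3 to 6 hr they were 4 and 2 (31.7% and 31.3%), from 6 to 9 hr 2 and 3 (24.8% and 26.6%), and at 9 against 0 hr 3 and 3 (35.7% and 35.6%). LPS moved a large share of all genes, and with 8 members these counts show nothing particular to them. The member calls also depended on the scaling. With quantile normalization Zfp36l2 (−0.43), Khsrp (−0.19) and Tial1 (−0.13) were called lower at 1 hr in WT, and Hnrnpd was not called (−0.093). Khsrp and Hnrnpd were then called lower in WT from 1 to 3 hr and from 0 to 9 hr. Calls in the other steps and in Cpeb4-/- libraries changed too. Of genes called at 1 hr, 51.5% were higher in WT, against 37.5% with quantile normalization, and 53.8% against 37.8% in Cpeb4-/-. The genes whose 10 group means correlated most with those of Zfp36 were Dusp1, a phosphatase of MAP kinases (r = 0.980), Junb (r = 0.978) and Nlrp3 (r = 0.978). For Zfp36l1 they were Lrig3 (r = 0.995), 1700008J07Rik (r = 0.992) and Zbtb16 (r = 0.990), and for Zfp36l2 Skp2 (r = 0.995), Mtmr10 (r = 0.994) and Ctns (r = 0.993). Group means ran from 1.63 to 3.87 for Lrig3 and from 2.34 to 5.67 for Zbtb16, low values beside the filter at a mean of 2.32. The 10 group means of each gene share mice across times and the LPS course.

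The genotypes were compared at each time to ask whether loss of CPEB4 alters these mRNAs. At 0 and 1 hr no member was called with limma, where 0.741% and 0.976% of all genes were higher and 0.565% and 0.938% lower in Cpeb4-/- cells, and 1 member had an unadjusted p under 0.05 at either time. At 3 hr 1 member was called higher and none lower (1.81% and 1.87% of all genes). At 6 hr 2 were higher and 1 lower (6.4% and 9.92%), and at 9 hr 2 were higher and none lower (4.69% and 3.22%). The median difference of the members was 0.10, 0.07, 0.10, 0.06 and 0.10 at 0, 1, 3, 6 and 9 hr, beside 0.01, 0.02, 0.01, −0.02 and 0.00 over all genes. Libraries of the 2 genotypes did not overlap for 3 members at each of 3, 6 and 9 hr, where this held for 13.6%, 20.2% and 16.9% of all genes, and for none at 0 and 1 hr (10.5% and 15.7%).

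Zfp36 was the member called lower in Cpeb4-/- cells, at 6 hr. WT mice 25, 69, 87 and 88 had 15.26, 15.38, 15.29 and 15.27, and Cpeb4-/- mice 2, 3, 55 and 62 had 15.03, 15.07, 15.12 and 15.04. The groups did not overlap (difference −0.23, SE 0.045, adjusted p = 0.005 with limma, exact permutation p = 0.0286, the smallest that 4 against 4 allow). It was −0.21 in batch 1 and −0.26 in batch 2, and the macrophage markers were also lower at this time, as given above. With quantile normalization the difference was −0.11 and not called (adjusted p = 0.0938), and this scaling also moved the share of higher genes among all calls at 6 hr from 39.2% to 50.7%. At 0, 1, 3 and 9 hr the Zfp36 groups overlapped, with differences of 0.09, −0.07, 0.04 and −0.15. Relative to 0 hr the difference at 6 hr was −0.33 (SE 0.089, adjusted p = 0.0347), the only member called for such a change at 6 hr, where 2.94% of all genes were, 30.6% of them upward (44.9% with quantile normalization). No member was called for it at 1, 3 or 9 hr (0.00763%, 0.206% and 1.76% of all genes), where 0, 1 and 2 members had an unadjusted p under 0.05. It was not called with quantile normalization (−0.23, adjusted p = 0.206), without the filter (adjusted p = 0.0612), or without any one mouse other than WT mouse 69 (−0.34 to −0.30, adjusted p = 0.064 to 0.164).

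Zfp36l1 was higher in Cpeb4-/- cells after the fall from its peak. At 9 hr WT libraries (mice 25, 69, 87 and 88) held 8.74, 8.64, 8.71 and 8.71, and Cpeb4-/- libraries (mice 2, 3, 55 and 62) 9.13, 8.99, 8.89 and 9.21. The groups did not overlap, and the difference was 0.35 (SE 0.074, adjusted p = 0.0189 with limma, exact permutation p = 0.0286), 0.37 in batch 1 and 0.33 in batch 2. Without WT mouse 25, 69 or 87 or Cpeb4-/- mouse 62 it was 0.30 to 0.37 and not called (adjusted p = 0.0532 to 0.0614). At 3 hr the values were 9.12, 9.42, 9.20 and 9.48 against 9.80, 9.58, 9.61 and 9.67 (0.36, adjusted p = 0.0485). That call was lost in 11 of 14 alternatives, including without each mouse other than WT mouse 88. At 6 hr they were 8.62, 8.59, 8.66 and 8.70 against 8.94, 8.83, 8.82 and 8.72 (0.19, adjusted p = 0.0469). That call was lost in 12 of 14, among them each mouse left out other than Cpeb4-/- mouse 62. The replicate block with mouse as a random effect lost it too (adjusted p = 0.136), as did all 40 libraries in 1 fit with no mouse term (adjusted p = 0.119, limma). All these libraries were separated by genotype at 3, 6 and 9 hr, and overlapped at 0 and 1 hr (differences 0.01 and 0.01). The change of the difference from 0 to 9 hr was 0.35 (adjusted p = 0.116, and 0.0449 with the block, where 4.66% of all genes were called against 1.76%).

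Zfp36l2 was above WT in mean at every time, by 0.21, 0.40, 0.36, 0.10 and 0.29, as was each other member except Zfp36. The times share the same mice, so they are not independent. At 9 hr WT mice 25, 69, 87 and 88 had 10.70, 10.76, 10.82 and 10.94 and Cpeb4-/- mice 2, 3, 55 and 62 had 10.95, 11.18, 11.06 and 11.20. The groups were separated narrowly, with WT mouse 88 just below Cpeb4-/- mouse 2 (adjusted p = 0.0312 with limma, SE 0.070), and the call was lost in 10 of 14 alternatives, among them the block (adjusted p = 0.0666) and leaving out any one mouse other than WT mouse 88 or Cpeb4-/- mouse 2. At 3 hr the groups also did not overlap (adjusted p = 0.0771, 0.0338 with the block and 0.0133 without WT mouse 88). At 1 hr they overlapped (adjusted p = 0.105, 0.0112 with the block and 0.043 without WT mouse 69). The settings that gained these calls also called more of all genes, 10.6% with the block and 19.8% without WT mouse 88 at 3 hr, and 33% and, without WT mouse 69, 18.6% at 1 hr. All 40 libraries in 1 fit with no mouse term changed the same calls as the block (adjusted p = 0.015, 0.0442 and 0.0801 at 1, 3 and 9 hr, limma). At 6 hr the difference was 0.19 and called (adjusted p = 0.0346) among these alternatives only without WT mouse 69, whose value of 10.17 stood above the other 3 WT libraries.

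As a share of the family per kilobase, Zfp36 at 6 hr was 97.40%, 97.09%, 97.40% and 97.29% in WT mice 25, 69, 87 and 88 and 96.46%, 96.45%, 96.65% and 96.68% in Cpeb4-/- mice 2, 3, 55 and 62. No Cpeb4-/- library reached the lowest WT library. At 9 hr the means were 91.3% ± 1.27 and 88.5% ± 1.03, again without overlap, and at 0, 1 and 3 hr the shares overlapped. At 9 hr the level of Zfp36 itself overlapped (−0.15, not called). The share of Zfp36l1 was then 1.87% in WT and 2.56% in Cpeb4-/- without overlap, and that of Zfp36l2 6.85% and 8.97% with overlap. The shares restate the 3 mRNA levels compared above and were not tested. Single genes did not overlap at 6 and 9 hr for 20.2% and 16.9% of all genes.

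Hnrnpd was called higher in Cpeb4-/- cells at 6 hr. WT mice 25, 69, 87 and 88 had 12.61, 12.54, 12.59 and 12.57 and Cpeb4-/- mice 2, 3, 55 and 62 had 12.67, 12.71, 12.75 and 12.72. The groups were separate but close (0.13, SE 0.036, adjusted p = 0.0254 with limma), and the difference was 0.20 with quantile normalization. The call was lost without WT mouse 69 or 88 or Cpeb4-/- mouse 3 or 62 (0.12 to 0.13, adjusted p = 0.0506 to 0.0763) and in eBayes without trend (adjusted p = 0.0592). Hnrnpd was also above WT in mean at 0, 1, 3 and 9 hr, by 0.10, 0.07, 0.10 and 0.11, not called with all mice. The change of its difference from 0 to 6 hr was 0.03 and not called (adjusted p = 0.883, limma). Tia1 did not overlap at 9 hr (9.36, 9.30, 9.33 and 9.35 in WT, 9.43, 9.60, 9.51 and 9.61 in Cpeb4-/-), with a difference of 0.20 that missed the threshold (adjusted p = 0.0562, limma). Its adjusted p was 0.0407 with the block, 0.0376 with all 40 libraries in 1 fit and no mouse term, and 0.00477 without Cpeb4-/- mouse 2. Without that mouse Hnrnpd (adjusted p = 0.0179) and Khsrp (0.0422) were also called higher at 9 hr, and 35.2% of all genes were called, against 18.1% with the block and the smaller shares given above for all mice. Elavl1, Khsrp and Tial1 were not called at any time with all mice, and Khsrp was called at 3 hr without WT mouse 88 (adjusted p = 0.0489). Their 95% intervals at 6 hr were −0.05 to 0.11 for Elavl1, −0.07 to 0.12 for Khsrp and −0.05 to 0.12 for Tial1, which leaves room for differences of that size.

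**Figure D4:**
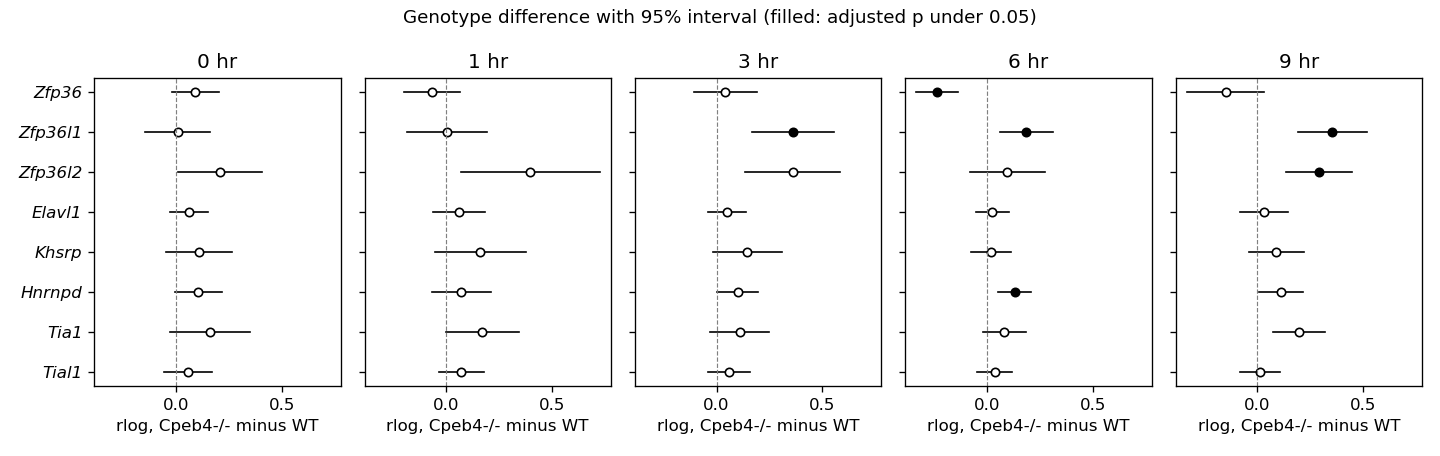
Difference in rlog, Cpeb4-/- minus WT, for each member at 0, 1, 3, 6 and 9 hr, with 95% intervals from limma (n = 4 per genotype) and filled points for an adjusted p under 0.05. Zfp36 lay below 0 at 6 hr (−0.23, and −0.11 with quantile normalization), and Zfp36l1 above 0 at 3, 6 and 9 hr.

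Genes around the family were read from 4 lists, written with earlier results of these data known. Of 18 classical ARE mRNAs, cytokines and immediate early genes that carry AREs, all 18 rose in WT within 1 hr (median 2.43, beside 0.02 over all genes, of which 19.4% were called higher), led by Csf2 (5.81), Cxcl1 (5.45), Cxcl2 (4.95) and Tnf (4.36). All 18 also rose with quantile normalization (median 2.54). The other lists depended on the scaling at 1 hr. Over all genes tested 19.4% were called higher and 18.3% lower, against 15.6% and 25.9% with quantile normalization. Of 13 kinases, phosphatase subunits and 14-3-3 proteins that act on TTP, 10 were called higher and none lower, against 4 higher and 5 lower with quantile normalization. Its leading genes were higher under both, Mapkapk2, which encodes MK2 (0.90 and 0.47), Mapkapk3 (0.46 and 0.38), Ppp2ca (0.37 and 0.11) and Sfn (0.24 and 0.33). Of 21 decay and translation partners, 2 were higher and 4 lower, against 1 and 7. Gigyf1 (−0.35 and −0.51) and Edc3 (−0.27 and −0.31) were lower and Cnot7 (0.27 and 0.23) higher under both, and Eif4e2 (0.27) was called only as deposited. Of 18 other ARE- or U-rich-binding proteins tested (22 listed), 10 were higher and none lower, against 1 and 7 with quantile normalization. Of its leading genes, Hnrnpa1 (0.26 and 0.31) was called under both, Pcbp1 (0.34) and Hnrnpc (0.31) as deposited only, and Hnrnpab (0.27) changed sign (−0.05).

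Between genotypes at 6 hr, 5 of the 18 ARE mRNAs were higher and 2 lower in Cpeb4-/- cells, with a median of 0.02 (all genes 6.4% and 9.92%, median −0.02). The largest differences were in Il10, an anti-inflammatory cytokine (−0.78, adjusted p = 0.000116, limma), Cxcl1 (0.70), Il23a (0.68) and Il6 (0.48). The list had 4 higher and 1 lower at 3 hr (median 0.13, all genes 1.81% and 1.87%, median 0.01), led by Csf2 (0.87), Ccl2 (−0.53, and −0.47 and not called with quantile normalization), Cxcl1 (0.47) and Ptgs2 (0.35), and 2 and 2 at 9 hr (median −0.01, all genes 4.69% and 3.22%, median 0.00), Vegfa (0.87), Ccl3 (−0.60), Tnf (−0.46) and Fos (0.40). Of the 13 genes that act on TTP, Mapkapk3 (0.29) and Mapk14 (0.18), which encodes p38α, were higher and Ywhaz (−0.13) lower at 6 hr, against 4 higher and none lower with quantile normalization (Ywhaz −0.05, not called), and none was called at 3 or 9 hr. With quantile normalization 7.86% of all genes were called higher and 7.63% lower at 6 hr. The medians of the 13 genes were −0.03, −0.05 and −0.09 at 3, 6 and 9 hr, and 0.02, 0.06 and −0.06 with quantile normalization. Of the 21 partners, Cnot7 (0.16) and Cnot8 (0.14), subunits of the CCR4-NOT deadenylase, were higher and the decapping enzyme Dcp2 (−0.25) lower (medians 0.08, −0.01 and 0.04 at 3, 6 and 9 hr). Of the 18 other ARE- or U-rich-binding proteins, Igf2bp1 (0.77), Hnrnpa0 (0.32) and Hnrnpc (0.15) were higher at 6 hr and none lower. With quantile normalization 8 were higher (all genes 7.86%). The list's median was 0.08 at each of the 3 times. At 3 hr Igf2bp2 (0.25) was called, and at 9 hr Igf2bp1 (1.19) and Hnrnpa0 (0.27). Among the decay and translation partners the decapping factor Dcp1a (0.31) was called at 9 hr, but not with quantile normalization (adjusted p = 0.0506, limma).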

How the data were processed

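Per the labels and the study's methods, reads of 40 poly(A) libraries were aligned by the authors to mm10 with STAR 2.3.0e and counted per gene with featureCounts. The authors applied the rlog transformation of DESeq2 and deposited the result, which is log2-scaled and pulls low counts towards the gene's mean. Because counts were not used here, the DESeq2 tests of the study were replaced by limma on rlog values. Samples were grouped by genotype and time from their labels.

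Genes whose rlog averaged log2 of 5 or more entered limma 3.58.1 under R 4.3.3, using eBayes with an intensity trend and the Benjamini-Hochberg method over all genes tested (13103 in the 40-library fit). Genotypes were compared in 1 fit per time (4 against 4 libraries). Time steps and the change of the genotype difference came from 1 fit of 10 group means. Calls are at an adjusted p under 0.05. For single members a two-sided exact permutation test was added, which cannot go under p = 0.029. The mouse pairs libraries across times, since each gave all 5. After removal of group means, the median r was 0.29 between libraries of 1 mouse, exceeding 0.1 for 68 of 80 pairs, and −0.09 between mice of a genotype. The fit was tested on simulated data. For the genotypes at 6 hr (13039 genes) it recovered 78 of 100 changes of 0.5 and 97 of 100 of 1, with 9 false calls. Smaller changes, such as those of the members between genotypes, were not simulated.

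Alternatives were no filter, quantile normalization, batch as a covariate, eBayes without trend, the replicate block (mouse as a random effect), all 40 libraries in 1 fit, leaving out each mouse and values within each batch. The members, and the gene lists written by hand from general knowledge, were chosen with earlier results of these data known. All members are named. From each list and comparison, up to 4 called genes with the largest absolute difference are named, and for each TTP family gene the 3 genes with the highest correlation. Motifs were searched with Python 3.11.15, and figures drawn with matplotlib 3.10.9.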

Additional observations from a re-analysis of the deposited data

Results flagged for a closer look

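Among 80 groups of 4 libraries (8 members), 3 held a library far from the rest, and chance alone flags about 1 in 20 groups. Zfp36l2 in WT mouse 69 at 6 hr was 10.17, where the other 3 WT libraries lay between 9.75 and 9.82. Elavl1 in WT mouse 25 at 0 hr was 11.05, against at most 10.97 in the others, and in WT mouse 87 at 9 hr it was 11.57, against at most 11.46. The genotype difference of Zfp36 at 6 hr departed from that at 0 hr by −0.33 by the test of the difference itself, with the exceptions given in the report.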

How the results depend on the processing

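Over the 8 members, 1839 values under the alternatives kept their direction and side of the threshold, 71 lost a call and 26 gained one. The sign changed for 67 that were called under neither setting (12 with quantile normalization, 55 with 1 mouse left out) and for 13 that were called under at least 1, all with quantile normalization. The 13 were Khsrp in WT from 0 to 1 hr (−0.19), Tial1 from 0 to 1 hr (−0.13 in WT, −0.14 in Cpeb4-/-) and Hnrnpd. In WT, Hnrnpd was −0.093 from 0 to 1 hr, −0.14 from 1 to 3 hr, −0.061 from 3 to 6 hr, 0.10 from 6 to 9 hr and −0.19 from 0 to 9 hr. In Cpeb4-/- it was −0.13, −0.090, −0.035, 0.050 and −0.21. The cause was not tested.

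Members called between genotypes were 1 at 1 hr with the block or all 40 libraries in 1 fit, where 33% and 31.9% of all genes were called. At 3 hr they were 0 without a filter, with quantile normalization, batch as a covariate or no trend, and 2 with the block or all libraries (10.6% and 10% of all genes). They were 1 at 6 hr without trend, and 1 at 9 hr without a filter or without trend. With 1 mouse left out they ranged from 0 to 1 at 1 hr, 0 to 3 at 3 hr, 1 to 2 at 6 hr and 0 to 5 at 9 hr, where each fit has fewer samples. For the change of the genotype difference at 6 hr the count was 0 without a filter or with quantile normalization and 0 to 1 with 1 mouse left out, and at 9 hr it was 1 with the replicate block. The block also gave a call for Hnrnpd in Cpeb4-/- from 0 to 1 hr (adjusted p = 0.0338), and apart from the values in the report it changed no other call of a member. At 6 hr the other ARE- or U-rich-binding proteins called were 8 with quantile normalization, where 15.5% of all genes were. Without a filter 1 of the decay partners and 4 of the classical ARE mRNAs were called, and 6.2% of all genes. Within batches, 74 of 80 genotype differences kept the sign of both batches together. The difference over both batches is the mean of the 2 batch values, so at least 1 of them always shares its sign.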
